A study of Mus musculus with 3 samples.

Results

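The genes of the Bcl2 family, the caspases and the other cell death genes examined here were 47 genes chosen for their part in apoptosis, necroptosis or pyroptosis, out of 46073 genes in the expression table. All 47 were found by matching Ensembl identifiers to mouse symbols. The levels come from RNA of the medial prefrontal cortex (mPFC), a frontal cortical region, of naïve C57BL/6 mice aged 3 months. No treatment, mutation or transgene is given in the labels, and MeDIP and input DNA of the same tissue, the other samples of the series, were not analysed here. The RNA-seq table holds 1 value per gene in FPKM, fragments per kilobase of transcript, scaled to the number of mapped fragments. Replicates cannot be told apart in it, so levels are given without an error and ratios between genes without a test.

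Apoptosis of the mitochondrial pathway is set by the balance of Bcl2 proteins on the outer mitochondrial membrane. BH3-only proteins sense damage or loss of trophic support, pro-survival members such as Bcl-xL hold them in check, and the effectors Bax and Bak form pores through which cytochrome c escapes. Cytochrome c assembles Apaf1 and Casp9 into the apoptosome, which activates the executioner caspases unless inhibitor of apoptosis proteins (IAPs) block them. Death receptors start a second route through Fadd and Casp8, while Ripk3 with Mlkl and the gasdermins open the plasma membrane in necroptosis and pyroptosis. Neurons cannot be replaced by division, and Bcl-xL, the product of Bcl2l1, is known as a survival factor of mature neurons.

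The tissue label was checked only for cell types, with marker genes that were not chosen to tell the mPFC from other brain regions. All 4 pan-neuronal markers were at 1 FPKM or more with a median of 223 FPKM, as were all 4 excitatory (median 199 FPKM), 5 inhibitory (39.8 FPKM), 4 astrocyte (27.8 FPKM), 4 oligodendrocyte (220 FPKM), 5 microglia (10.6 FPKM) and 4 endothelial markers (4.66 FPKM). None of 5 blood leukocyte markers reached 1 FPKM, and the highest of them, Ptprc, was at 0.577 FPKM; 2 of the 5 passed after the rescaling described next. In such a mixture of cell types, few cells of a type and little RNA per cell cannot be told apart, and which cells carry a given death gene was not tested.

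Of the 47 cell death genes, 31 were at 1 FPKM or more, the level called detected here, which is 66.0% against 31.5% of all rows and 58.6% of the 20635 protein-coding rows. At this scale the share is close to that of protein-coding genes. The median member was at 3.66 FPKM, against 2.59 FPKM for protein-coding rows and 0.0414 FPKM for all rows. At 10 FPKM or more stood 14 members (29.8%), against 29.1% of protein-coding rows. None was listed at 0, against 15.6% of protein-coding rows. The levels ran from Bnip3 at 47.7 FPKM to Fasl at 0.0593 FPKM. Between 0.9 and 1 FPKM lay 4 members, so the count of detected genes rests in part on where the floor is set. It also rests on the scale. Rescaling FPKM to a fixed total over all rows but the mitochondrial ones multiplies each value by 2.54. Then 42 of the 47 members (89.4%) were at 1 FPKM or more, against 64.9% of protein-coding rows. The counts of single role groups below are to be read against the same 58.6%, or 64.9% after the rescaling.

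**Figure D1:**
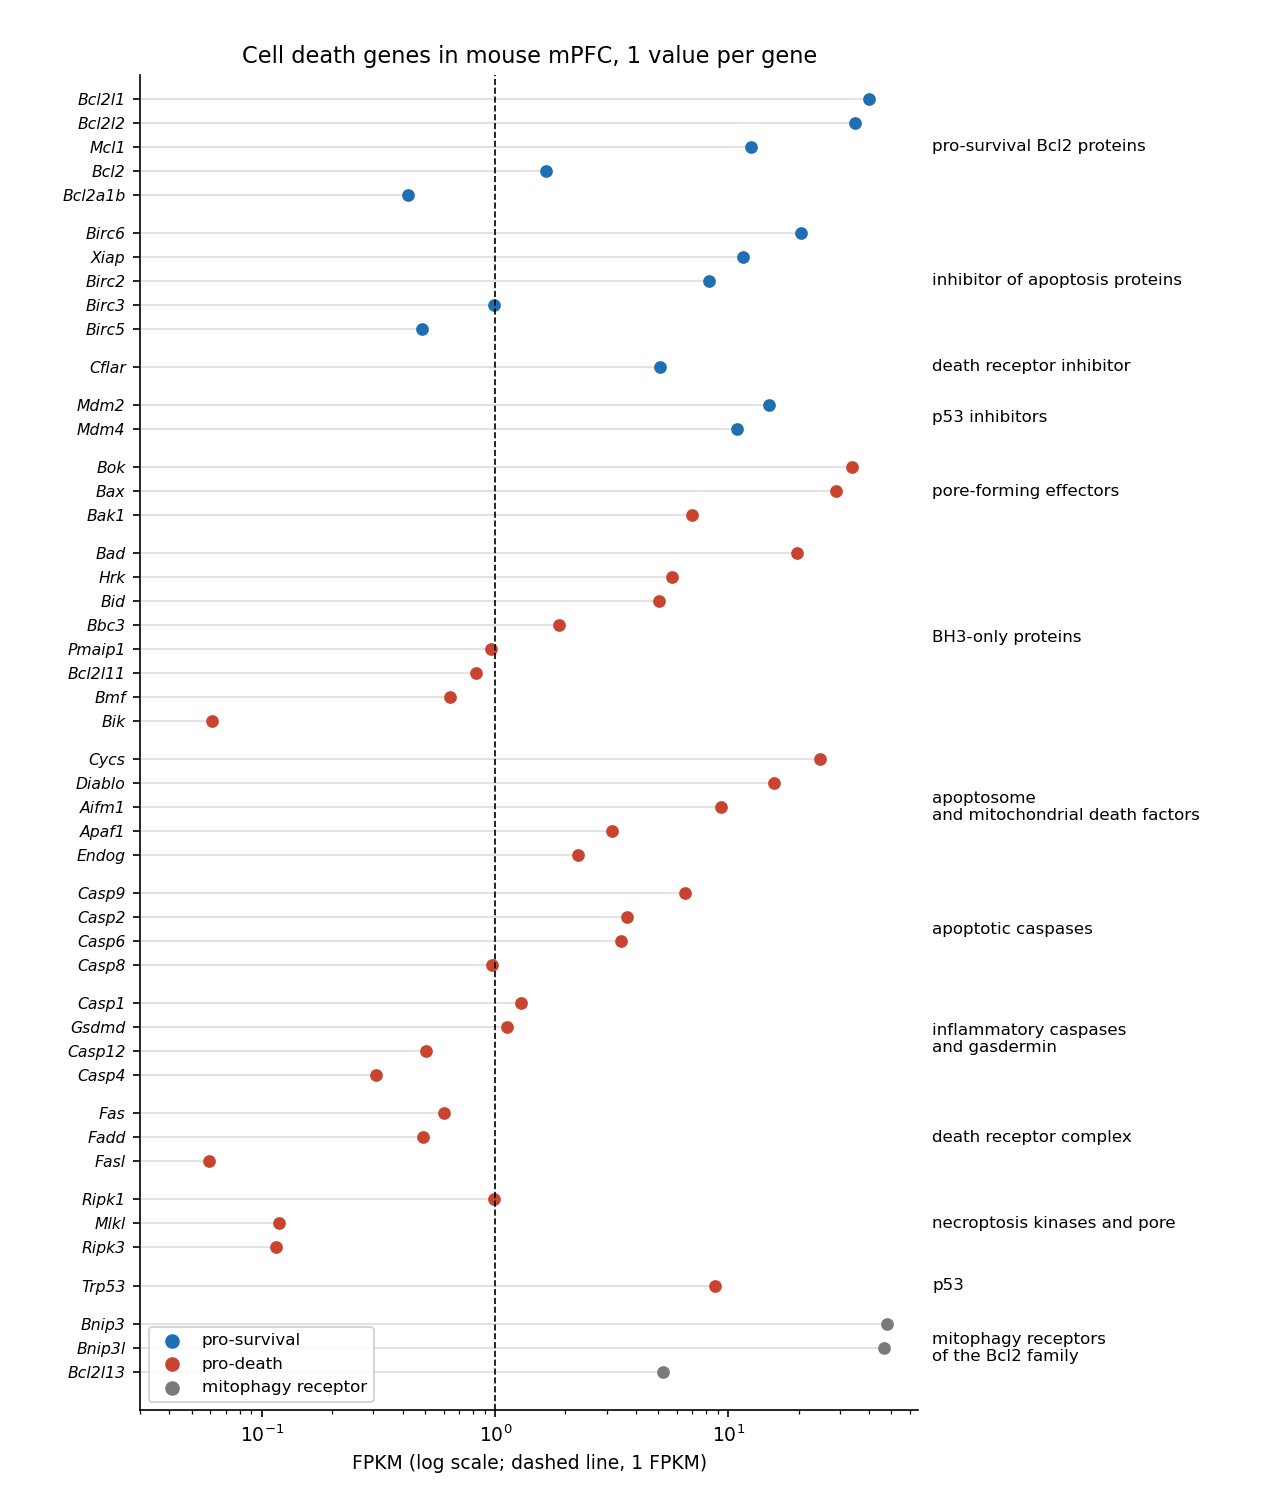
FPKM of each of the 47 cell death genes (log axis), grouped by role, with pro-survival genes in blue, pro-death genes in red and mitophagy receptors in grey. The pro-survival Bcl2l1 and Bcl2l2, the effectors Bok and Bax and the receptors Bnip3 and Bnip3l stand at the right between 28.8 and 47.7 FPKM, and every gene of the death receptor complex and of necroptosis lies left of the dashed line at 1 FPKM.

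The promoters of 3 pairs of members are shown because their CpG content, where cytosine methylation can occur, is set against the RNA levels further on: Bcl2 and its paralog Bcl2l2, the neighbouring IAP genes Birc2 and Birc3, and the neighbouring Cflar and Casp8. The windows are from RefSeq for GRCm38.p6, run 5′ to 3′ on the gene's strand from 250 bases before to 50 bases after an annotated transcript start, and are in lower case with every CpG in capitals. Bcl2 lies at chr1:106714241-106714540 on the minus strand with 44 CpG, and Bcl2l2 at chr14:54883175-54883474 on the plus strand with 9. Birc2, the farther upstream of its 2 windows, lies at chr9:7837008-7837307 on the minus strand with 34 CpG, and Birc3 at chr9:7873121-7873420 on the minus strand with 7. Cflar lies at chr1:58711241-58711540 on the plus strand with 12 CpG, and Casp8 at chr1:58802252-58802551 on the plus strand with 5. The start used for Casp8 lies 7269 bases inside the annotated span of the gene, and those of the other printed windows lie between 0 and 180 bases from the outer end of theirs.
Bcl2: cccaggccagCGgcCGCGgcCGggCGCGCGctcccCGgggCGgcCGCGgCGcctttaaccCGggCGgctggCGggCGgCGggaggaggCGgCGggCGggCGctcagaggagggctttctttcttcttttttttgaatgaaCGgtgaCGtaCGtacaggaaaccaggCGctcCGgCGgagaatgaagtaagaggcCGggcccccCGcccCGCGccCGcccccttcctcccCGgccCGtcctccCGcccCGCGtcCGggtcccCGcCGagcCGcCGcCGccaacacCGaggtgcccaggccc
Bcl2l2: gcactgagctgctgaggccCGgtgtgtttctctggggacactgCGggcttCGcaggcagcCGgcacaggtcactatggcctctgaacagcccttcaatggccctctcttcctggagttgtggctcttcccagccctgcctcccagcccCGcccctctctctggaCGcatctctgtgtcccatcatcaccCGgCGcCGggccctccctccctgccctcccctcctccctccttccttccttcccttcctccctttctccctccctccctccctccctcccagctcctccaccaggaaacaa
Birc2: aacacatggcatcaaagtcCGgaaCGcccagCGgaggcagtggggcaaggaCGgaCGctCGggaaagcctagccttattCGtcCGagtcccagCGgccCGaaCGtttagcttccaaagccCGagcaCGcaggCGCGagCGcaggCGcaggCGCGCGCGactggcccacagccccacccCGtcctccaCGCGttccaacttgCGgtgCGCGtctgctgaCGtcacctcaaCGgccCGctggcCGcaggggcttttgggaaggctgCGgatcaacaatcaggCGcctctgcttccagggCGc
Birc3: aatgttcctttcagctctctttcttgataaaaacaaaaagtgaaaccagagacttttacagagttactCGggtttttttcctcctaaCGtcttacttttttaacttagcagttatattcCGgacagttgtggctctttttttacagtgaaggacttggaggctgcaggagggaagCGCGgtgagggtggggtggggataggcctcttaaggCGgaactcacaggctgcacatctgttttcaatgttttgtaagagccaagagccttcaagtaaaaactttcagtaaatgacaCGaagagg
Cflar: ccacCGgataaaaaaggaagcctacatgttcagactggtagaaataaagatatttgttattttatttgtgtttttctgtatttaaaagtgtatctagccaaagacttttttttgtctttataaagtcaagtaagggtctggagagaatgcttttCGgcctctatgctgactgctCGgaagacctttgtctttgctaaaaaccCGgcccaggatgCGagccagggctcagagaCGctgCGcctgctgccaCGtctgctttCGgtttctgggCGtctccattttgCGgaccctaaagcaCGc
Casp8: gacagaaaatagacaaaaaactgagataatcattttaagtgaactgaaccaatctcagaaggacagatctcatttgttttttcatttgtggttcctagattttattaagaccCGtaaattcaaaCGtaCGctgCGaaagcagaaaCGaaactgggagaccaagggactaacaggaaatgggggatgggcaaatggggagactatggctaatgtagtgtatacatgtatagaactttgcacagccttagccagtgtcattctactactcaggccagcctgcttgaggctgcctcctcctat

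Among the pro-survival Bcl2 proteins, Bcl2l1 and Bcl2l2 were high and Bcl2 itself was low. Bcl2l1, which encodes Bcl-xL (chromosome 2, 152758732 to 152833803, GRCm38), was at 40.1 FPKM, above 91.5% of protein-coding rows. Bcl2l2, which encodes Bcl-w (chromosome 14, 54883366 to 54890858), was at 34.7 FPKM, 0.866 times Bcl2l1. Together they made up 83.7% of the summed FPKM of the 5 pro-survival Bcl2 genes. Mcl1, a short-lived guardian of many cell types, was at 12.5 FPKM, 7.61 times Bcl2. Bcl2, the founding member of the family (chromosome 1, 106538176 to 106714290), was at 1.64 FPKM, with Bcl2l1 24.4 times and Bcl2l2 21.1 times higher. Bcl2a1b, an A1 gene of blood cells, was at 0.422 FPKM. It has close copies, so its value is uncertain, as is the sum of Bcl2a1a, Bcl2a1b and Bcl2a1d, 0.539 FPKM.

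All 3 pore-forming effectors were detected, and Bok and Bax were the highest pro-death genes. Bok, an effector less bound by pro-survival proteins than its relatives (chromosome 1, 93685575 to 93695770), was at 34.0 FPKM, 1.18 times Bax. Bax (chromosome 7, 45461695 to 45466903) was at 28.8 FPKM and Bak1 (chromosome 17, 27019812 to 27028627) at 7.01 FPKM, a ratio of 4.11. Bak1 lies wholly within the annotated span of Ggnbp1, which was at 2.81 FPKM. Summed over genes, the 5 pro-survival Bcl2 genes held 89.4 FPKM and the 3 effectors 69.8 FPKM, a ratio of 1.28. Per gene the order was the opposite, with medians of 12.5 and 28.8 FPKM and means of 17.9 and 23.3 FPKM. The 8 BH3-only genes, also pro-death, held a further 34.9 FPKM that is not in the effector sum. These values describe RNA and not protein. Bcl2l1 was 1.39 times Bax.

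The BH3-only genes were led by Bad, and 4 of the 8 did not reach 1 FPKM, while 7 of the 8 did after the rescaling. Bad, whose binding to Bcl-xL is blocked by phosphorylation, was at 19.8 FPKM, which was 56.7% of the summed FPKM of the group and 3.93 times Bid. Hrk, a BH3-only gene known from neurons deprived of trophic factor, was at 5.70 FPKM. Bid, which links death receptors to mitochondria, was at 5.03 FPKM. Bbc3, which encodes the p53 target Puma, was at 1.88 FPKM, and Pmaip1, which encodes the p53 target Noxa, was at 0.955 FPKM. Bcl2l11, which encodes Bim, was at 0.827 FPKM, 0.164 times Bid. Bmf, which responds to loss of attachment in other tissues, was at 0.638 FPKM, and Bik was at 0.0608 FPKM. The group median was 1.42 FPKM.

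Bnip3 and Bnip3l, 2 of the 3 mitophagy receptors of the family, stood highest of all members. Both are outer membrane proteins that recruit autophagosomes to mitochondria, and they were at 47.7 and 46.6 FPKM, above 93.3% and 93.0% of protein-coding rows, with Bnip3l 0.976 times Bnip3. Bcl2l13, another receptor with Bcl2 homology, was at 5.25 FPKM. Their part in death or survival depends on context, and they were put on neither side.

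Downstream of the mitochondria, all 5 genes of the apoptosome and of released death factors were detected. Cycs, the respiratory electron carrier cytochrome c, was at 24.7 FPKM and 7.81 times Apaf1, the apoptosome scaffold, at 3.16 FPKM. Cycs is known for processed pseudogenes, so its value is uncertain. Diablo, which frees caspases from IAPs, was at 15.6 FPKM, 1.35 times its target Xiap. Aifm1, a flavoprotein needed for respiratory complex assembly, was at 9.25 FPKM, and Endog, a mitochondrial nuclease, was at 2.27 FPKM. Apaf1 was 0.486 times Casp9, the caspase it activates.

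Of the 4 apoptotic caspases, 3 were detected, all 4 after the rescaling, and none reached 10 FPKM. Casp9, the initiator of the mitochondrial route, was highest at 6.49 FPKM and 6.73 times Casp8, the initiator of the death receptor route, at 0.964 FPKM. Casp2, an initiator linked to mitotic stress, was at 3.66 FPKM and Casp6, an executioner studied in axon degeneration, at 3.46 FPKM, or 0.565 and 0.533 times Casp9. The inflammatory caspases and the gasdermin that they cleave were lower, with a group median of 0.813 FPKM, and 2 of the 4 were detected, or 3 after the rescaling. Casp1, the inflammasome caspase, was at 1.29 FPKM and Gsdmd, the pore of pyroptosis, at 1.12 FPKM. Casp4, which responds to bacterial lipopolysaccharide in the cytosol, was at 0.307 FPKM, and Casp12, linked to the endoplasmic reticulum, was at 0.504 FPKM.

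Among the IAP genes, Birc6, Xiap and Birc2 were detected and Birc3 and Birc5 were not, while all 5 passed after the rescaling. Birc6, a giant ubiquitin ligase, was at 20.5 FPKM, 1.77 times Xiap. Xiap, the direct inhibitor of executioner caspases, was at 11.6 FPKM, 1.41 times Birc2. Birc2 and Birc3 encode the cIAP ubiquitin ligases of TNF receptor complexes. Birc2 was at 8.22 FPKM, 8.35 times Birc3 at 0.985 FPKM. Birc5, which encodes survivin, a protein of dividing cells, was at 0.485 FPKM.

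In the death receptor complex and in necroptosis, 0 of 6 genes reached 1 FPKM, against 58.6% of protein-coding rows. The inhibitor Cflar did reach it. The receptor gene Fas was at 0.604 FPKM, its ligand gene Fasl at 0.0593 FPKM and the adaptor gene Fadd at 0.489 FPKM. Cflar, which encodes cFLIP, a catalytically inactive relative that blocks Casp8, was at 5.08 FPKM and 5.27 times Casp8. The kinase gene Ripk1, a scaffold of both survival and death complexes, was at 0.983 FPKM. The necroptosis kinase gene Ripk3 was at 0.114 FPKM, and Mlkl, its membrane-rupturing substrate, was at 0.118 FPKM, 1.03 times Ripk3. After the rescaling Fas, Fadd and Ripk1 passed, 3 of 6, against 64.9% of protein-coding rows.

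The gene of the tumour suppressor p53 was below the genes of both its inhibitors. Trp53, which encodes p53 (chromosome 11, 69580348 to 69591873), was at 8.73 FPKM. Mdm2, the ubiquitin ligase that degrades p53 and is itself a p53 target (chromosome 10, 117688875 to 117710758), was at 15.0 FPKM, 1.72 times Trp53. Mdm4, which represses p53 activity (chromosome 1, 132986105 to 133030587), was at 10.9 FPKM, 0.726 times Mdm2.

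Pro-survival members had the higher median level. The 13 pro-survival genes (5 of the Bcl2 family, the 5 IAP genes, Cflar, Mdm2 and Mdm4) had a median of 10.9 FPKM and the 31 pro-death genes a median of 1.88 FPKM, a ratio of 5.78, with 2.59 FPKM as the median of protein-coding rows. Of the pro-survival genes, 10 of 13 (76.9%) were detected and 7 (53.8%) were at 10 FPKM or more. Of the pro-death genes, 18 of 31 (58.1%) were detected and 5 (16.1%), Bok, Bax, Cycs, Bad and Diablo, were at 10 FPKM or more. Of protein-coding rows, 29.1% were at 10 FPKM or more. The share of protein-coding rows detected was 58.6%, so the pro-death share was near the background. After the rescaling 13 of 13 pro-survival and 26 of 31 pro-death genes were detected, against 64.9% of protein-coding rows. The pro-survival median lay above 72.5% of protein-coding rows and the pro-death median above 46.8%. Above the pro-death median stood 9 of 13 pro-survival genes, and above the pro-survival median stood 5 of 31 pro-death genes. The sides overlapped over most of their range, from 0.422 FPKM for Bcl2a1b to 40.1 FPKM for Bcl2l1 on the pro-survival side and from 0.0593 FPKM for Fasl to 34.0 FPKM for Bok on the pro-death side. Summed, the sides held 162 and 189 FPKM, so the order of the sums was the opposite of that of the medians, with more genes on the pro-death side.

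The size of the ratio depended on the summary and on the genes counted. Its direction was the same in each alternative listed next. It was the opposite for the sums, and for the pro-survival Bcl2 genes against the effectors alone, with medians of 12.5 and 28.8 FPKM. The ratio of the sides was 2.49 from geometric means on the log2(FPKM + 1) scale and 2.49 from the medians of Bcl2 family genes only. It was 1.98 over detected members only and 9.03 without Cycs, Aifm1 and Endog, which also serve mitochondria in living cells.

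**Figure D2:**
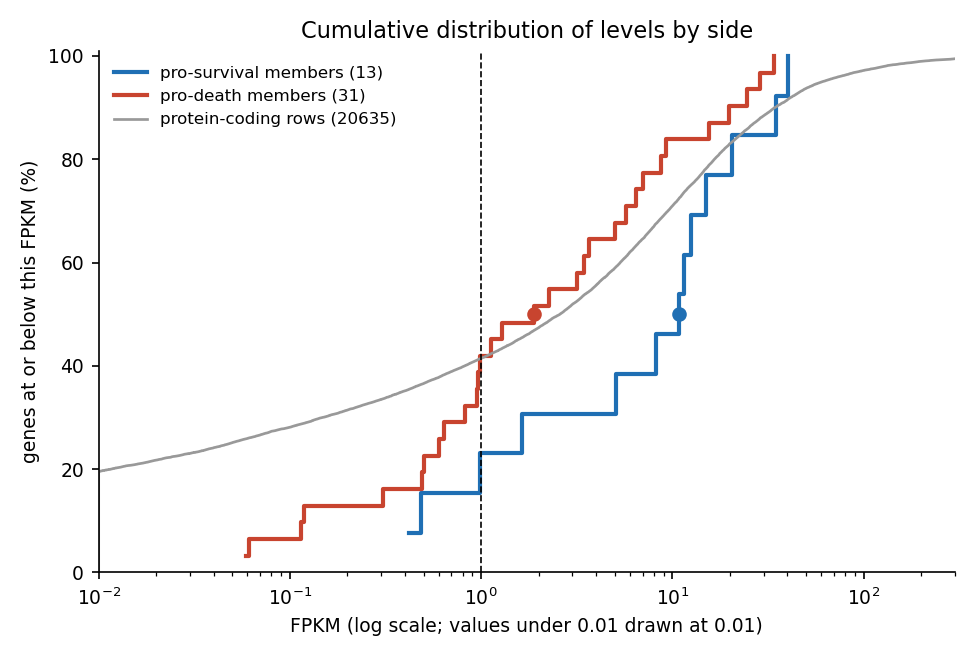
Cumulative share of genes (percent) at or below each FPKM value (log axis) for the 13 pro-survival genes, the 31 pro-death genes and the 20635 protein-coding rows, with a point at each side's median and a dashed line at 1 FPKM. The pro-survival curve lies to the right, with its median at 10.9 FPKM against 1.88 FPKM for the pro-death curve.

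Members with related roles were set side by side in 28 pairs, and on the log2(FPKM + 1) scale 10 of them were 2-fold or more apart. In 9 of these the first gene was higher: Bcl2l1, Bcl2l2 and Mcl1 over Bcl2, Cycs over Apaf1, Birc2 over Birc3, Casp9 and Cflar over Casp8, Bax over Bak1 and Bad over Bid. In the tenth, Bcl2l11 was below Bid. The added 1 FPKM shrinks differences between low genes. Fas was 10.2 times Fasl, Ripk1 was 8.60 times Ripk3 and Casp1 was 4.20 times Casp4 in FPKM, yet they differed by 0.60, 0.83 and 0.81 on that scale. With no replicates, none of these differences could be set against a spread. The share of other gene pairs that lie 2-fold apart was not computed, so the count describes these pairs only. Some of the 10 pairs share a gene, such as Bcl2 or Casp8, and which gene came first was set when the pairs were listed.

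**Figure D3:**
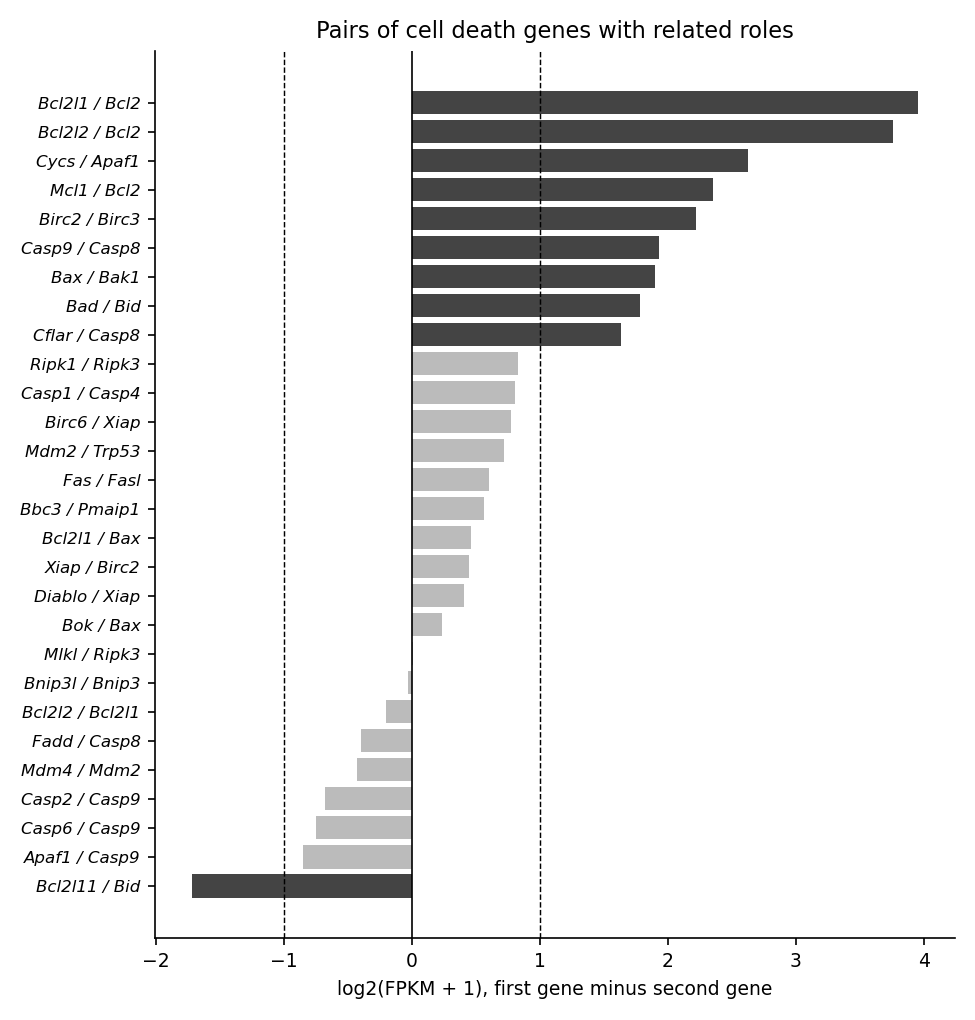
Difference in log2(FPKM + 1), first gene minus second gene, for each of 28 pairs, with dashed lines at a 2-fold difference and the pairs beyond them in dark grey. The largest bars are Bcl2l1 over Bcl2 at 3.96 and Bcl2l2 over Bcl2 at 3.76, and the only dark bar to the left is Bcl2l11 below Bid at -1.72.

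Several members lie next to each other in the genome, some at like and some at unlike levels. Within 100 kilobases there were 5 neighbouring pairs. Bcl2l13 and Bid, 276 bases apart on chromosome 6, were at 5.25 and 5.03 FPKM, a ratio of 1.04. Cflar and Casp8, 36.3 kilobases apart on chromosome 1, differed 5.27-fold, and Birc2 and Birc3, 10.3 kilobases apart on chromosome 9, differed 8.35-fold. The inflammatory caspase genes lie together on chromosome 9, with Casp1 1.57 kilobases from Casp4 and Casp4 8.65 kilobases from Casp12, and all 3 were under 2 FPKM.

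Promoters of the detected members held more CpG than those of undetected members, as over all protein-coding genes. A promoter window was at hand for 43 of the 47 members, and for those with several windows the mean was taken. Bik, Bnip3l, Gsdmd and Pmaip1 had none. The CpG content was taken as observed over expected, the count of CpG relative to that foreseen from the C and G of the window. Its median was 0.771 in 29 detected members and 0.438 in 14 undetected members, a difference of 0.333. Over protein-coding genes the medians were 0.754 in 9722 detected and 0.219 in 6842 undetected genes, a difference of 0.536. With 0.6 or more called CpG-rich, 21 of 25 CpG-rich members (84.0%) were detected, against 87.2% of CpG-rich protein-coding genes. Of the 18 CpG-poor members 8 (44.4%) were detected, against 31.9% of CpG-poor protein-coding genes. The members' share was thus near that of all protein-coding genes in the CpG-rich class and higher in the CpG-poor class, which held only 18 members. The median promoter ratio was 0.711 for pro-survival and 0.698 for pro-death members.

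The promoters printed above follow this pattern in Birc2 and Birc3. In the Bcl2 pair both genes were detected, and the one with less promoter CpG was the higher. The Birc2 windows had a mean ratio of 0.896 and Birc2 was at 8.22 FPKM, while the Birc3 window had 0.516 and Birc3 was at 0.985 FPKM. Cflar had 0.791 and 5.08 FPKM, and Casp8 had 0.380 and 0.964 FPKM, but the Casp8 window lies inside the gene and the CpG at the outer end of its span was not measured. The Bcl2 window had 1.02 with 1.64 FPKM, and the Bcl2l2 window 0.337 with 34.7 FPKM. Among the CpG-poor but detected members were also Xiap at 11.6 FPKM, Mdm4 at 10.9 FPKM, Trp53 at 8.73 FPKM and Bak1 at 7.01 FPKM. The windows of Xiap, at 0.276, 0.706 and 0.198, all lie inside its annotated span, so the CpG at its outer end was not measured. CpG-rich but undetected were Ripk1, Bcl2l11, Fadd and Birc5, and all 4 passed 1 FPKM after the rescaling. So did the CpG-poor Birc3, Casp8, Bmf, Fas, Casp12 and Bcl2a1b, undetected before it. The comparison of CpG between detected and undetected members was not repeated on the rescaled values. The windows of Bcl2l1 differed widely, at 0.0558, 0.612 and 1.07, and its mean of 0.580 lay just under the limit. All of these Bcl2l1 windows also lie inside the annotated span of the gene. Methylation of these promoters was not analysed here.

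**Figure D4:**
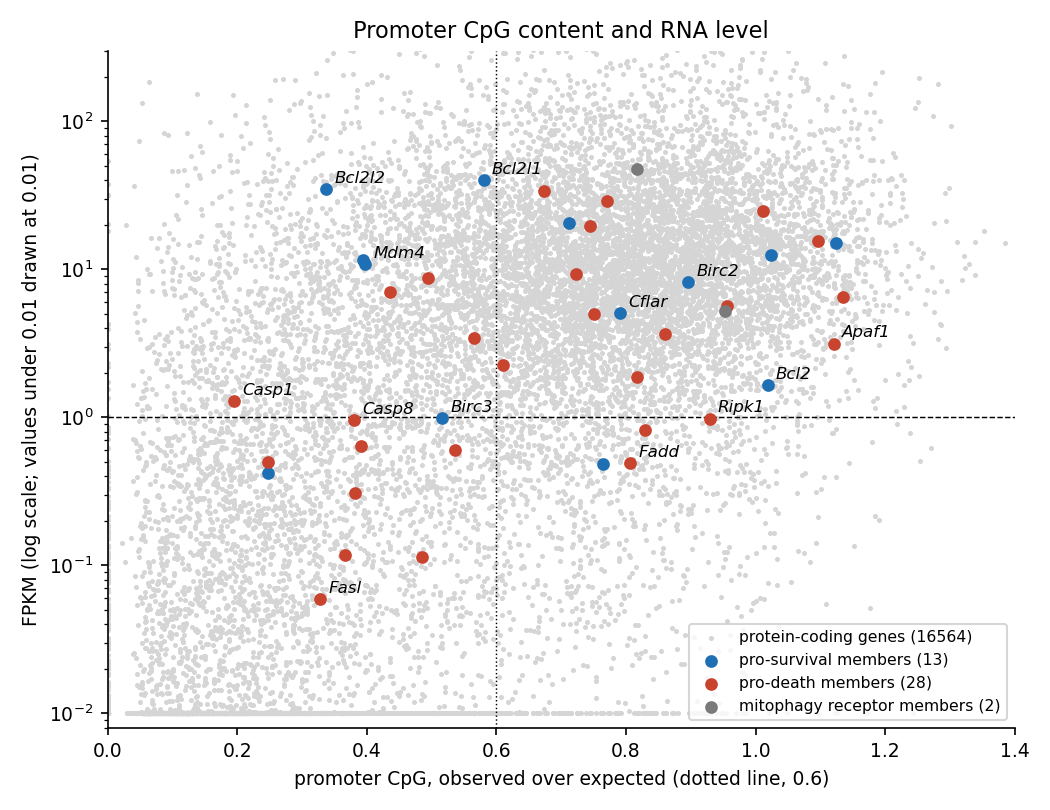
FPKM (log axis) against the observed over expected CpG of the promoter for 13 pro-survival, 28 pro-death and 2 mitophagy receptor genes, over 16564 protein-coding genes in light grey (genes beyond the axes are not drawn), with lines at 1 FPKM and at 0.6. The lower right holds 4 members, Ripk1 and Fadd among them, and Bcl2l2 and Bcl2l1 stand high at the upper left.

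Other genes of the same pathways were taken from 7 lists of 57 genes that are not among the 47. Of these 57 genes, 37 (64.9%) were detected, against 58.6% of protein-coding rows. After the rescaling 40 (70.2%) were detected, against 64.9% of protein-coding rows. The counts of the single lists are to be read against the same 58.6%. Of 6 other Bcl2 family genes 1 was detected, Bcl2l12 at 1.10 FPKM, followed by Bcl2l15 at 0.330 and Bcl2l14 at 0.107 FPKM, and Bcl2l10, a gene of the ovary, was listed at 0. Of 3 caspase and nuclease genes 2 were detected. Dffa, the inhibitor of the apoptotic nuclease, was at 15.4 FPKM and the nuclease Dffb at 2.72 FPKM, while the epidermal Casp14 was listed at 0. Of 4 IAP genes and antagonists 2 were detected, the mitochondrial protease Htra2 at 20.5 FPKM and Xaf1 at 7.39 FPKM, with Birc7 at 0.225 and Naip1 at 0.00981 FPKM.

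The TNF receptor family genes Tnfrsf21 and Tnfrsf1a were above Fas, and Tnf itself was low. Of 11 TNF signalling genes 7 were detected. Tnfrsf21, which encodes the death receptor DR6, was at 18.7 FPKM, the deubiquitinase Cyld at 11.9 FPKM and Tnfrsf1a, which encodes the main TNF receptor, at 5.39 FPKM, while Tnf was at 0.0236 FPKM. Of 9 inflammasome and rupture genes 5 were detected, led by Il18 at 11.8, Ninj1 at 9.41 and Gsdme at 4.89 FPKM, with the sensor Nlrp1a lowest at 0.0162 FPKM. Of 12 genes of the p53 family and its targets 9 were detected, led by Sesn1 at 18.05, Phlda3 at 17.6 and Ccng1 at 17.1 FPKM. Trp63, the p53 relative of stratified epithelia, was lowest at 0.172 FPKM.

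Of 12 other death regulators 11 were detected, with a median of 30.9 FPKM. The mitochondrial channel genes Vdac1 and Vdac2 were at 220 and 110 FPKM and Tmbim6, an endoplasmic reticulum protein that restrains Bax-induced death, at 99.3 FPKM. Zbp1, a sensor that activates Ripk3, was lowest at 0.208 FPKM. Vdac1 was thus above each of the 47 members, of which the highest was at 47.7 FPKM.

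**Figure D5:**
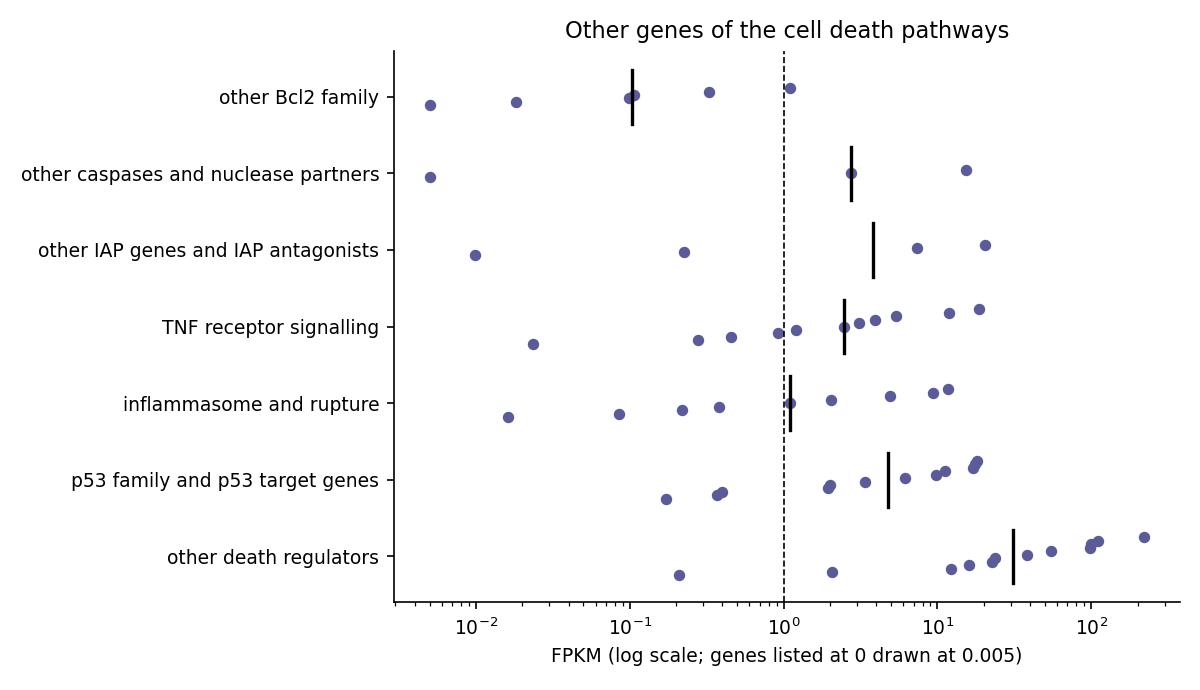
FPKM (log axis) of 57 other cell death genes in 7 lists, each point a gene and each black bar the list's median, with a dashed line at 1 FPKM. The other death regulators have the highest median, 30.9 FPKM, and the other Bcl2 family genes the lowest, 0.103 FPKM.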

How the data were processed

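RNA of the mPFC was extracted with a phenol-based reagent and made into libraries with the TruSeq RNA v2 kit, per the labels' protocols. CASAVA 1.8.2, TopHat and Cufflinks with build mm10 were used, per the submitters' processing notes. For the other tools the version, and for the counting the annotation and the use of strand, were not stated. The authors deposited FPKM values in 2 columns, which are the same in 46073 of 46073 rows and were counted as 1 sample. The design text states 3 RNA replicates, and how they were combined is not given. No spread, p-value or counting interval could be had, and the depth is unknown. FPKM is divided by transcript length, so errors in length or in the mapping of copies enter every ratio between genes.

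Symbols came from an Ensembl table, which named 45139 rows. RefSeq for GRCm38.p6, the assembly of mm10, gave gene classes, coordinates and promoter windows of 300 bases. Symbols that RefSeq lists as protein coding named 20635 rows. The 47 members, their sides, 7 further lists, 8 marker lists and 28 pairs were chosen with earlier results of these data known. All members are named, with the 3 highest and the lowest gene of each further list. Some items of the lists are not reported here. The limit of 0.6 for CpG and the motifs searched were set after the data were seen. The scripts were checked on simulated data. Computation used pandas 2.3.3 and numpy 2.4.6 under Python 3.11.15, with plots by matplotlib 3.10.9.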

Additional observations from a re-analysis of the deposited data

How the results depend on the processing

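No paired analysis was possible because there is 1 sample, and leaving out libraries could not be run because the table does not hold separate libraries. The count of 31 detected members became 45 at a floor of 0.1 FPKM, 23 at 5 FPKM and 42 after rescaling without mitochondrial rows. The pro-survival median of 10.9 FPKM became 7.09 FPKM as a geometric mean and 12.04 FPKM over detected members. The pro-death median of 1.88 FPKM became 2.84 FPKM as a geometric mean, 6.09 FPKM over detected members and 1.21 FPKM without Cycs, Aifm1 and Endog. The pro-survival over pro-death ratio of 5.78 became 2.49 from geometric means with 1 FPKM added, 2.90 with 0.1 FPKM added, 1.98 over detected members, 9.03 without Cycs, Aifm1 and Endog, 6.87 without Ripk1, Bok and Trp53, and 2.49 for Bcl2 family genes. The filter on detection removes 3 of 13 pro-survival and 13 of 31 pro-death genes. Of 28 pairs, 10 differed 2-fold, 14 with 0.1 FPKM added and 5 at 4-fold. The promoter difference between detected and undetected members of 0.333 became 0.406 at a floor of 0.1 FPKM, and as CpG per 100 bases it was 4.67. Depth limits the low values to an unknown degree.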

Other observations

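Motifs in the promoter windows were counted on both strands, over 57 windows of 43 members and 32851 windows of all genes. No motif contains another, and they were chosen after the data were seen. The GC box, searched as GGGCGG, was in 36 member windows (63.2%) and in 35.7% of all windows. Its letters hold a CpG, and the windows compared were not matched for CpG content or gene class. The CCAAT box, searched as CCAAT, was in 18 member windows (31.6%) and in 37.4% of all windows. TATAAA was in 3 member windows (5.26%), those of Cflar, Trp53 and Xiap, and in 13.6% of all windows. These counts describe letters in the windows, without a test, and say nothing of binding.

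Some members share bases with other genes, and without a stated use of strand their reads cannot be told apart there. The share of all genes that overlap another was not counted. Overlapping genes without an FPKM value, such as Gm32092 over 3863 bases of Ripk3, could not be compared by level. Of the 47 members, 16 overlap another annotated gene and 9 a protein-coding one. In 4 of them the overlapping gene was the higher: Ripk1 at 0.983 FPKM shares 570 bases with Serpinb6a at 20.9 FPKM, Endog at 2.27 FPKM shares 624 bases with Spout1 at 13.3 FPKM, Bad at 19.8 FPKM shares 590 bases with Gpr137 at 36.6 FPKM, and Apaf1 at 3.16 FPKM shares 7 bases with Ikbip at 4.50 FPKM.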
